A study of Homo sapiens with 3 samples.

Results

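Peaks of ribosome-protected RNA that lie in internal exons, that is, exons that are neither the first nor the last of their transcript, are described here. Members were the rows of the 3 deposited peak lists whose annotated region was an exon with number k of N, with k above 1 and below N. They numbered 13011 of 46819 peaks, with 3582 of 11219 in the vector list, 6950 of 19920 in the wild-type DDX3X list and 2479 of 15680 in the DDX3X G325E list. All cells were HEK293T, a human embryonic kidney line, transiently transfected for 24 h. The vector group received empty pCDNA3.1, the wild-type group FLAG-tagged wild-type DDX3X and the mutant group FLAG-tagged DDX3X G325E, a substitution in this DEAD-box RNA helicase that is found in medulloblastoma. All 3 groups kept their own DDX3X gene. The labels state that cells of every group received harringtonine, which holds initiating ribosomes, at 2 µg/ml for 90 s and then cycloheximide, a blocker of elongation, at 100 µg/ml, whereas the study's methods name cycloheximide only. There was 1 library per construct, without replicates, so no difference could be set against the spread between cultures and no test between constructs was made. Intervals are 95% Wilson intervals and cover the counting of peaks only. Peak height and reads per peak are not part of the lists. The study's supplement gives the depth of each library, and once duplicates were left out mapped reads were most with wild-type and fewest with G325E. The numbers of members ran in that order and the numbers of all peaks did not, and the part of depth in these numbers was not tested. Where 3 values follow each other without a list name, they stand in the order vector, wild-type, G325E.

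Ribosomes move along the coding sequence of a spliced mRNA 1 codon at a time and shield a short stretch of it from nuclease. Internal exons of human genes are mostly short and mostly coding, so footprints mapped back to the genome are divided wherever a ribosome sits across an exon junction. DDX3X is known to act in the scanning of structured leaders before a start codon, whereas ribosomes in internal exons past the start codon are already elongating. An internal exon can also hold the start codon itself, and initiating and elongating ribosomes were not told apart here. The labels give the cell type as neuronal, and of 12 neuronal marker genes 3 (TUBB3, NEFL and NEFM) had a peak of any class in every list. These markers held 31 peaks with vector, 35 with wild-type and 51 with G325E, most of them outside internal exons. NEFM (16, 19 and 33) and NEFL (7, 10 and 13) had the most with G325E, whereas TUBB3 (8, 6 and 5) had the fewest there. Markers of proximal kidney tubule (6 genes) and of lymphocytes (3 genes) had 0 peaks in every list.

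The first set of sequences shows what a shared member looks like. Each is a peak present in all 3 lists at nearly the same place in a gene with many members. Capitals mark the stretch that all 3 lists cover. Coordinates are those of the lists (hg19), and each sequence was read from GRCh37 on the strand of the transcript. It includes the base before the listed start, for a reason given with the peak edges.
TRIM28 exon 8 of 17, plus strand, chr19:59059666-59059693: actTCCAGCTGCACCGGGCCCTCAAGAtg
TACC3 exon 4 of 16, plus strand, chr4:1729944-1729969: gccctGGGCTGCCCTGCGGGTGTGGgc
DBN1 exon 12 of 14, minus strand, chr5:176885180-176885204: GTGACCCAGAGGAAGTGGAAGGGGAG
MYH9 exon 38 of 41, minus strand, chr22:36681168-36681195: CTGGAGGAGCAGCTGGACAACGAGACCAA
PRKCSH exon 11 of 18, plus strand, chr19:11558255-11558279: GCACTGCCCACCGACCTTCCAGCacc
The peaks of DBN1 (26 bp) and MYH9 (29 bp) had the same edges in all 3 lists, to the base. In TRIM28, TACC3 and PRKCSH the edges varied by a few bases around a shared stretch of 24, 20 and 23 bp.

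The next sequences span the range of base composition among peaks that only 1 list held. G and C are in capitals. The first 3 have the lowest GC content of such peaks in the named genes and all come from the wild-type list.
HSP90AB1 exon 8 of 12, wild-type list, plus strand, chr6:44219234-44219253: tGaaaGtCattCGCaaaaaCa
DDX3X exon 14 of 17, wild-type list, plus strand, chrX:41205815-41205834: GCCaaGtGatattGaaGaata
AKAP12 exon 2 of 3, wild-type list, plus strand, chr6:151670080-151670100: GtGaaaaaGGataaGaCaGaGa
RNF40 exon 13 of 20, vector list, plus strand, chr16:30779425-30779443: CtCCGGGCCCaGGCCaGtGG
GATA6 exon 2 of 7, G325E list, plus strand, chr18:19751187-19751212: tCCaGCGCGGGaGCCCtCCaCGCCGCC
EDC4 exon 17 of 29, wild-type list, plus strand, chr16:67914050-67914070: GCCCGCGtGGCCtCCtGCCtGG
GC content was 33.3% in the HSP90AB1 and DDX3X peaks and 36.4% in the AKAP12 peak, against 80% in RNF40, 81.5% in GATA6 and 81.8% in EDC4.

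The last sequences show short stretches of footprints divided by an exon junction. In each, a peak ends on the last base of an exon and a second peak of the same list begins on the first base of the next. Small letters are the upstream exon's piece and capitals the downstream exon's.
ATXN2L exon 16 of 23 and the next exon, G325E list, plus strand, chr16:28845518-28845532 and chr16:28845665-28845672: gggaccagctgtgcagGCACCTCAG
EEF2 exon 13 of 15 and the next exon, wild-type list, minus strand, chr19:3977427-3977438 and chr19:3977334-3977345: tgtggagatccagTGTCCAGAGCAGG
FASN exon 31 of 43 and the next exon, wild-type list, minus strand, chr17:80041394-80041410 and chr17:80041294-80041301: ctcagaaccacccgctcgGCATGGCTA
OS9 exon 13 of 15 and the next exon, wild-type list, plus strand, chr12:58114038-58114046 and chr12:58114190-58114206: acagctgcagGGAAAATTGAGATCAAAA
Joined, the pieces measured 25 bp in ATXN2L, 26 bp in EEF2, 27 bp in FASN and 28 bp in OS9. These 4 were chosen after their values were seen, among pairs of 22 to 30 bp in which each piece also reached a minimum length. Most joined stretches were longer or shorter. Those of 25 to 35 bp were 74 of 649 with vector, 132 of 1270 with wild-type and 48 of 415 with G325E.

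Internal exons took a smaller share of the G325E list than of the others. They held 31.9% of all vector peaks (95% interval 31.1 to 32.8), 34.9% of wild-type peaks (34.2 to 35.6) and 15.8% of G325E peaks (15.2 to 16.4). Among exon-class peaks on transcripts of more than 1 exon the shares were 68.6%, 70.6% and 49.3%. First exons made up 11.9% of exon-class peaks with vector, 11.2% with wild-type and 29.9% with G325E, while last exons differed little at 17.5%, 16.9% and 15.8%. Single-exon transcripts held 5.96%, 4.26% and 9.83%. The vector and wild-type intervals for internal exons lay within a few percentage points of each other, and the G325E interval lay far below both. The authors numbered the peaks of each list, and these numbers skip 1952 values with vector, 3099 with wild-type and 0 with G325E. What the skipped peaks held is not known, and their part in these shares was not tested.

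**Figure D1:**
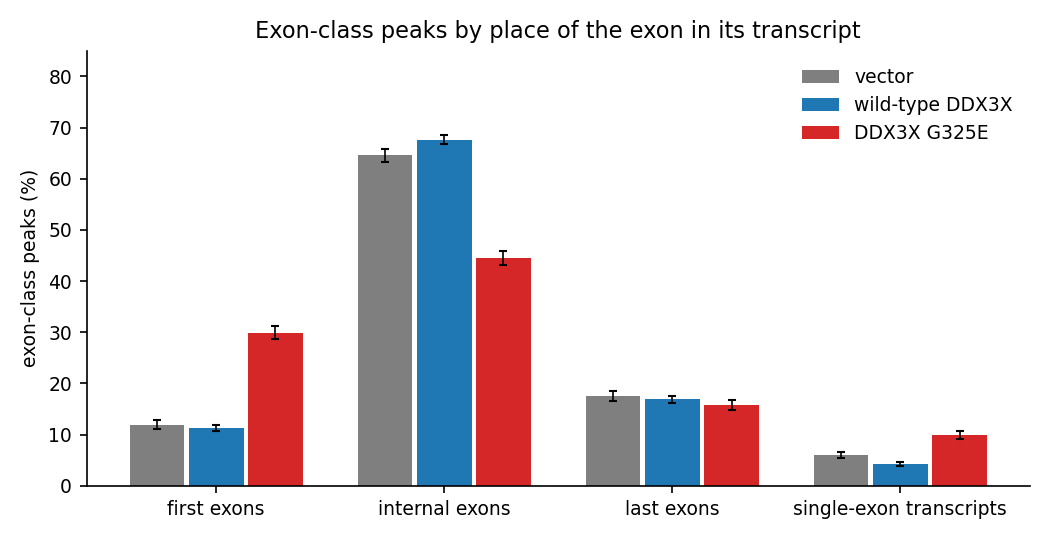
Share of each list's exon-class peaks (percent, vertical axis) in first exons, internal exons, last exons and single-exon transcripts. Bars are vector (grey), wild-type DDX3X (blue) and DDX3X G325E (red), and error bars are 95% Wilson intervals. The G325E bar is the lowest for internal exons (44.5% against 64.5% and 67.6%) and the highest for first exons (29.9%).

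The contrast was smaller within genes that all lists held. The members came from 872 genes with vector, 1404 with wild-type and 611 with G325E, and 446 of 1522 genes had members in all 3 lists. Within those 446 genes internal exons held 60.2% of vector peaks, 60% of wild-type peaks and 51.5% of G325E peaks. Among their exon-class peaks on transcripts of more than 1 exon the shares were 86.1%, 86.8% and 83.0%. These genes were required to have members in every list, which raises the share in each. Genes without members in G325E are left out by this rule, so the choice of genes itself narrows the contrast.

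The peaks themselves were alike in form between lists. Median length was 36 bp with vector, 35 bp with wild-type and 36 bp with G325E, and the longest measured 268, 303 and 310 bp. Almost all members lay in coding sequence of the GENCODE transcript they were placed on (99.8%, 99.9% and 99.8%) and in an exon that was internal there too (99.4%, 99.6% and 98.9%). Both shares were favoured in advance. Peaks in untranslated regions form classes of their own in the lists, and the placing preferred internal exons between transcripts otherwise ranked alike. They fell into 1791 exons with vector, 3253 with wild-type and 1132 with G325E, with means of 2.00, 2.13 and 2.19 peaks per exon. Together they covered 54.0%, 52.9% and 51.6% of the bases of those exons. An exon on a list was thus covered to much the same extent in each of the 3 lists, and the lists differed in how many exons they held.

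Members of the G325E list lay earlier in their transcripts. The median exon number was 5 with vector, 6 with wild-type and 4 with G325E. Exon 2 held 18.8% of members with vector (17.5 to 20.1), 16.4% with wild-type (15.5 to 17.2) and 26.3% with G325E (24.6 to 28.1). Exon 10 or later held 21.9%, 29.8% and 20.05%, so at this far end the vector list lay nearer to G325E than to wild-type. The mean position of coding peaks, as a fraction of coding length, was 0.501 ± 0.265 with vector (SD over 3572 peaks), 0.510 ± 0.263 with wild-type (6936 peaks) and 0.465 ± 0.270 with G325E (2473 peaks), a difference much smaller than the spread among peaks.

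Within the same gene the difference was small beside its spread. In 284 genes with at least 3 members in both the G325E and the wild-type list, the mean exon number in G325E minus that in wild-type averaged -0.14 (SD 2.09 over genes), with 108 genes higher, 102 lower and 74 equal. The mean position differed by -0.21 percentage points of coding length (SD 14.7). In 228 genes with members in G325E and vector, the difference in exon number was 0.03 (SD 1.68), with 85 genes higher and 80 lower. In 455 genes with members in wild-type and vector it was -0.06 (SD 1.30), with 143 higher and 189 lower. In genes that 2 lists shared, about as many had members further 3′ as further 5′ in G325E.

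Base composition set the G325E members apart from the others. In the 31 nt around the midpoint, GC content averaged 56.3% ± 11.5 with vector (SD over 3582 peaks), 55.9% ± 11.6 with wild-type (6950 peaks) and 62.5% ± 11.8 with G325E (2479 peaks). The whole exons that held them averaged 54.7%, 54.2% and 59.1%. First exons, the most GC-rich class, showed a gap of like size (69.4%, 69.2% and 74.8%), and last exons a wider one (57.9%, 57.4% and 66.5%). The higher GC content in G325E was therefore found in each of these classes. In exons that 2 lists shared the gap was narrower. In 943 exons with members in both G325E and wild-type the difference was 1.19 percentage points (SD 4.90 over exons), with G325E higher in 437 and lower in 285. In 789 exons shared with vector it was 1.04 points (361 higher, 238 lower), and in 1654 exons shared by wild-type and vector it was -0.07 points (603 higher, 581 lower).

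Whether an internal exon of the wild-type list also appeared in the G325E list went with the exon's GC content. Of 585 wild-type exons under 45% GC, the G325E list held 11.5% (9.12 to 14.3). The share was 21.1% from 45 to 50% GC, 24.2% from 50 to 55%, 32.1% from 55 to 60% and 37.4% from 60 to 65%, and it reached 55.4% (50.4 to 60.3) of 388 exons at 65% or more. The vector list held 47.7% of wild-type exons under 45% GC and 56.7% at 65% or more, with 48.6 to 53.1% between. The exons of the vector list gave a like series in G325E, from 19.3% under 45% GC to 71.0% at 65% or more.

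**Figure D2:**
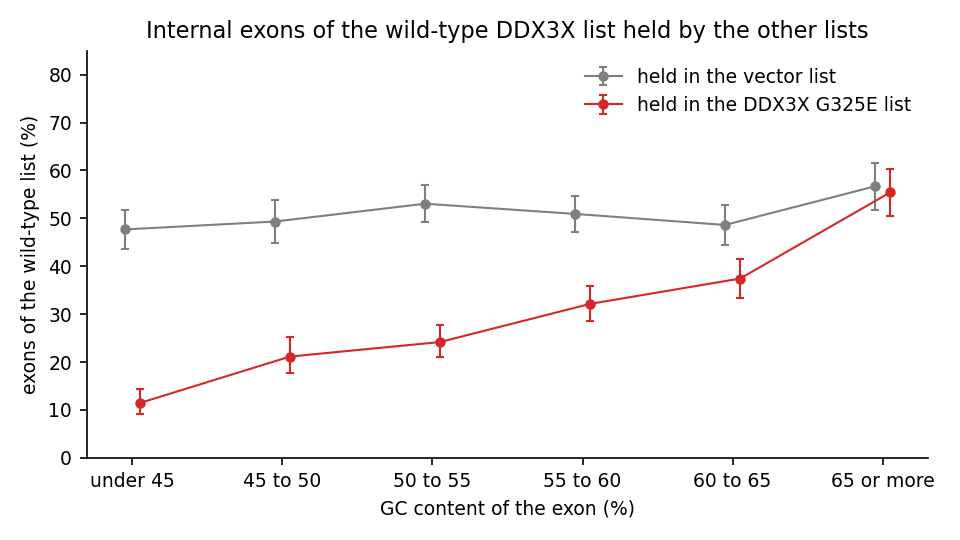
Percent of the wild-type list's internal exons that also held a member in the vector list (grey) or the G325E list (red), by the GC content of the exon. Points are shares and error bars 95% Wilson intervals. The red series climbs from 11.5% to 55.4%, and the grey series stays between 47.7% and 56.7%.

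Exon number moved with this share as well. The G325E list held 43.6% of wild-type exons with number 2, 34.9% of numbers 3 to 5 and 21.4% of number 6 or later, and in vector the last of these groups was also the lowest. At 65% GC or more, G325E held 75% of exons with number 2 (78 of 104) and 39.8% of those with number 6 or later (78 of 196). Under 45% GC the shares were 21.6% (19 of 88) and 8.25% (26 of 315). In vector the corresponding shares were 69.2% and 46.4% at 65% or more, and 48.9% and 42.5% under 45%. For exons of number 6 or later the share rose from each GC bin to the next. For exon 2 it fell from 30.3% at 45 to 50% GC to 24.1% at 50 to 55%, where it lay below the 34.0% of exons 3 to 5, with overlapping intervals. GC content and exon number thus each went with the share at the ends of the range, but not at every step between. Peaks of 1 gene share an mRNA and are not independent.

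Peak edges lay at exon ends far more often than at any position inside. The listed start fell 1 base after the first base of the exon in 3453 members and on it in 20, while the listed end fell on the last base in 3617 and 1 base short of it in 51. The listed start is therefore 1 base late, and that base was put back for every value given here. The 5′ edge then lay on the first base of the exon in 28.1% of vector members, 26.9% of wild-type members and 23.4% of G325E members. The 3′ edge lay on the last base in 29.1%, 28.2% and 24.9%. For comparison, a position 10 to 29 nt inside the exon held on average 0.50%, 0.45% and 0.45% of 5′ edges and 0.48%, 0.47% and 0.49% of 3′ edges.

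**Figure D3:**
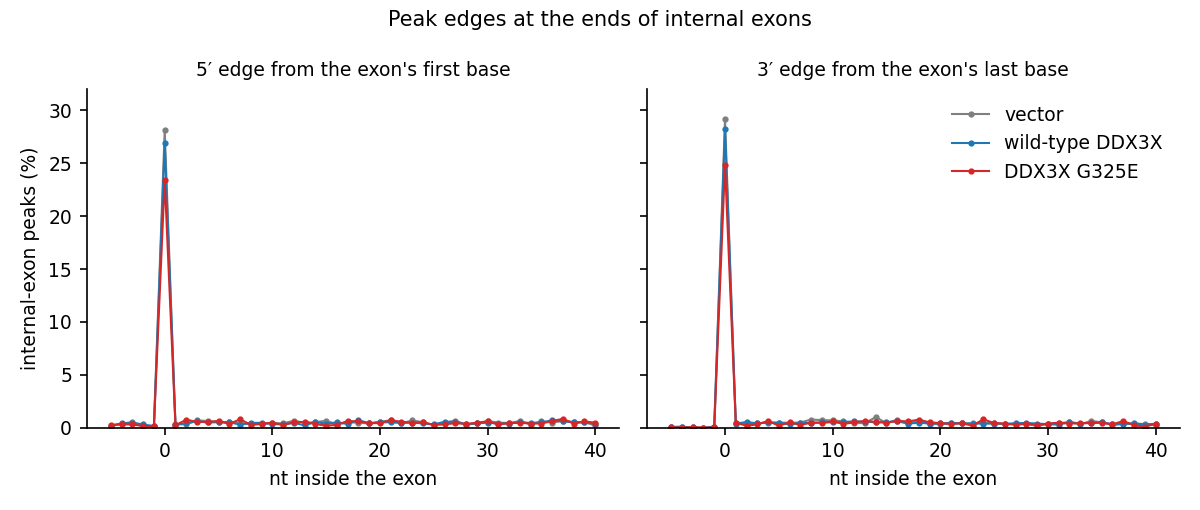
Percent of internal-exon peaks (vertical axis) whose 5′ edge lies at each distance from the first base of the exon (left) or whose 3′ edge lies at each distance from the last base (right), in nt, with positive values inside the exon. Lines are the 3 lists. All rise to between 23.4% and 29.1% at 0, and elsewhere stay between 0.121% and 1.01% inside the exon and at most 0.531% beyond it.

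Many of these edges faced another peak across the junction. Of members ending on the last base of their exon, 55.5% with vector, 59.1% with wild-type and 52.8% with G325E had a peak of the same list starting on the first base of the next exon of the transcript, as in the ATXN2L, EEF2, FASN and OS9 pairs shown above. Short members mostly reached an exon end, whether or not another peak faced them. Of those under 20 bp, 84.2%, 82.6% and 79.3% had an edge at an exon end, against 46.2%, 44.6% and 37.3% of those of 20 bp or more. Joining the pieces lowered the number of members by 12.1% with vector, 13.2% with wild-type and 9.85% with G325E, and joined stretches had a median length of 74, 74 and 75 bp. The number of rows in internal exons thus counts more pieces than footprint stretches. A midpoint within 15 nt of an exon end was found for 26.5%, 27.2% and 26.3% of members, with overlapping intervals.

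The edges that were not at exon ends followed the reading frame. Of 2421 such 5′ edges in vector, 47.8% fell on the first base of a codon (45.8 to 49.8), where equal use of the 3 positions would give 1 in 3. The share was 47.0% in wild-type (45.6 to 48.4, 4737 edges) and 42.1% in G325E (39.8 to 44.5, 1747 edges). Of the 3′ edges, 43.9% with vector and 43.4% with wild-type fell on the second base, and 38.3% with G325E. The third base took 24.1%, 25.2% and 33.7% of 3′ edges. All 3 lists therefore kept the frame of translation in internal exons, and the G325E intervals lay below those of the other lists. G325E was also lowest for 3′ edges on the second base in first exons (41.1%, 42.3% and 36.3%) and in last exons (40.7%, 45.3% and 36.7%). For 5′ edges on the first base it was lowest in last exons (48.9%, 45.8% and 44.96%) but not in first exons (44.96%, 42.6% and 44.3%), with overlapping intervals in both.

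**Figure D4:**
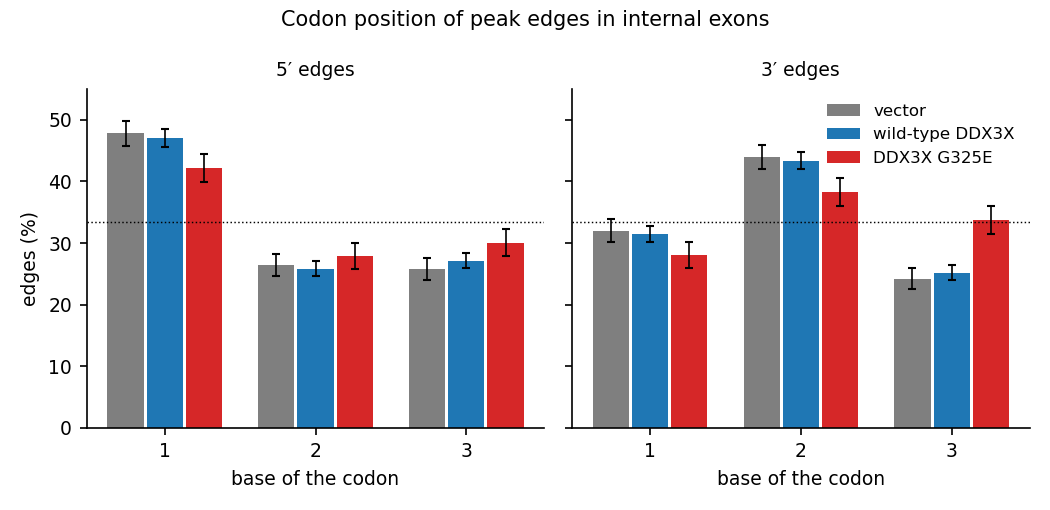
Percent of 5′ edges (left) and 3′ edges (right) of internal-exon peaks on each base of the codon, exon ends left out, for the 3 lists. Error bars are 95% Wilson intervals and the dotted line marks equal use. First-base 5′ edges reach 47.8%, 47.0% and 42.1%, and second-base 3′ edges 43.9%, 43.4% and 38.3%.

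Members were located at the same places to unequal degrees. A wild-type peak overlapped 87.1% of vector members by at least 1 bp, where it overlapped 77.2% of all vector peaks. A G325E peak overlapped 40.2% of vector members (48.3% of all vector peaks) and 24.9% of wild-type members (35.2% of all wild-type peaks). A vector peak overlapped 43.4% of wild-type members (41.9% of all wild-type peaks). Of the G325E members, 62.2% were overlapped by a vector peak and 78.1% by a wild-type peak, against 35.7% and 47.6% of all G325E peaks. G325E members were thus found in the other lists more often than G325E peaks at large, and members of the other lists were found in G325E less often than their peaks at large. Peaks in neither other list made up 11.1% of members with vector, 50.6% with wild-type and 19.2% with G325E, against 17.1%, 46% and 48.5% of all peaks. In all, 766 of 3556 exons held members in all 3 lists, 1422 in the wild-type list only, 114 in vector only and 166 in G325E only. These exons of 1 list were 43.7% of the internal exons of wild-type, 6.37% of those of vector and 14.7% of those of G325E, against 39.7%, 6.3% and 22% of exons of all exon classes. The wild-type list is the longest, so a peak is more likely to meet one of its peaks whatever the construct.

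Numbers of members per gene were scaled to equal totals between lists, and a gene was counted when its scaled numbers, with 0.5 added, differed at least 2-fold. Of 669 genes with at least 5 members over the G325E and wild-type lists, 191 (28.6%) were higher in G325E and 286 (42.8%) lower. For peaks of all classes 24.7% of genes were higher and 27.5% lower. Of the 286, 264 had 0 members in G325E. Against vector, 71 of 462 genes (15.4%) were higher in G325E and 126 (27.3%) lower, with 32.8% and 20.3% for all classes. Between wild-type and vector, 205 of 769 genes (26.7%) were higher in wild-type and 141 (18.3%) lower, with 26.1% and 16.4% for all classes. Genes were lower in G325E more often in internal exons than in peaks of all classes, against both other lists, whereas wild-type against vector lay close to the background. These numbers turn on the scaling, because the lists differ in length in large part by genes that are absent. The G325E list held 0.357 times as many members as wild-type, but in the 394 genes with members in both the median ratio was 0.67. Scaled by that median, log2 differences against wild-type were lower by a median of 0.77, and 35 genes (5.23%) were higher in G325E and 329 (49.2%) lower, with 20.1% and 30.8% for all classes. Against vector the same scaling gave 60 genes (12.99%) higher in G325E and 138 (29.9%) lower, with the opposite balance of 35.4% and 15.8% for all classes. For wild-type against vector it gave 245 (31.9%) higher and 24 (3.12%) lower, close to the 30.9% and 4.81% for all classes. Among genes with at least 10 members the order turned, with 97 higher and 71 lower in G325E against wild-type, and it turned also with each exon counted once (75 and 54). Shares for all classes were not computed under these settings, so these counts have no background beside them. The comparisons share lists and are not independent. The lists give footprints without mRNA levels, so fewer mRNAs and fewer ribosomes on each mRNA cannot be told apart.

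Many of these genes had many members in one list and none in another. Among 261 genes with at least 8 members in wild-type, 103 (39.5%, 33.7 to 45.5) had 0 in G325E and 68 (26.1%, 21.1 to 31.7) had 0 in vector. Counted over peaks of all classes, 885 genes reached 8 with wild-type, of which 25.2% had 0 in G325E and 23.4% had 0 in vector. These counts were not scaled to list length. Members numbered 3582, 6950 and 2479, and peaks of all classes 11219, 19920 and 15680, so the lists differ more in members. A shorter list is more likely to hold 0 members of a gene, and the part of list length was not tested. Of the 103 genes, 27 had G325E peaks of other classes, and of the 68 genes 12 had such peaks in vector. The authors' peak numbers run in genome order. Skipped numbers around a gene were counted between the nearest listed peaks on either side of its members, at any distance. The skipped peaks may thus lie outside the gene. Of the 68 genes without members in vector, 54 had no skipped number around them in that list. The G325E numbers skip none anywhere, so none could fall around the 103 genes. This cannot tell whether peaks were removed from the G325E list. Members of the 103 genes had a mean GC content of 54.6% ± 7.96 (SD over genes), against 58.5% ± 7.12 in the genes that had members there. For the genes without members in vector the order was the reverse, 58.6% ± 8.005 against 56.4% ± 7.52.

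Among the genes with the largest shares of members, some had nearly equal numbers in the 3 lists. EEF2 (chr19:3976054-3985461 for the canonical transcript on GRCh37, minus strand, 15 exons), the factor that moves the ribosome along by a codon, had 30 members with vector, 22 with wild-type and 29 with G325E. Its scaled number was 3.70-fold higher in G325E than in wild-type, and the members lay in 9 exons, 2 to 14, in each list. TRIM28 (chr19:59055431-59062082), a corepressor that acts with zinc finger proteins, had 23, 28 and 24, and DBN1, an actin-binding protein, had 18, 18 and 19 in 7 exons of each list. EEF2, TRIM28 and DBN1 thus kept nearly the same numbers in the shorter G325E list, which left their scaled numbers 2.40-, 2.96- and 3.70-fold higher than with wild-type for TRIM28, DBN1 and EEF2. With the median scaling these were 1.29-, 1.58- and 1.98-fold. PRKCSH, the β subunit of glucosidase II, had 14, 19 and 15 members.

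Other leading genes had their most members in the wild-type list. TCOF1 (chr5:149737260-149779856), the nucleolar protein treacle, had 24 members with vector, 48 with wild-type and 19 with G325E, in 9, 16 and 5 exons. EIF3C, a subunit of initiation factor eIF3, had 13, 40 and 15, although reads from it may be shared with its near-identical copy EIF3CL. MYH9 (chr22:36677326-36784012, 41 exons), a nonmuscle myosin heavy chain, had 7, 38 and 16. Its 7 vector members lay in exons 38 to 40, those of G325E began at exon 28 and those of wild-type at exon 16, so the list with more members reached further towards the 5′ end of the mRNA. TACC3, a mitotic spindle protein, went the other way with 29 members with vector, 20 with wild-type and 11 with G325E.

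**Figure D5:**
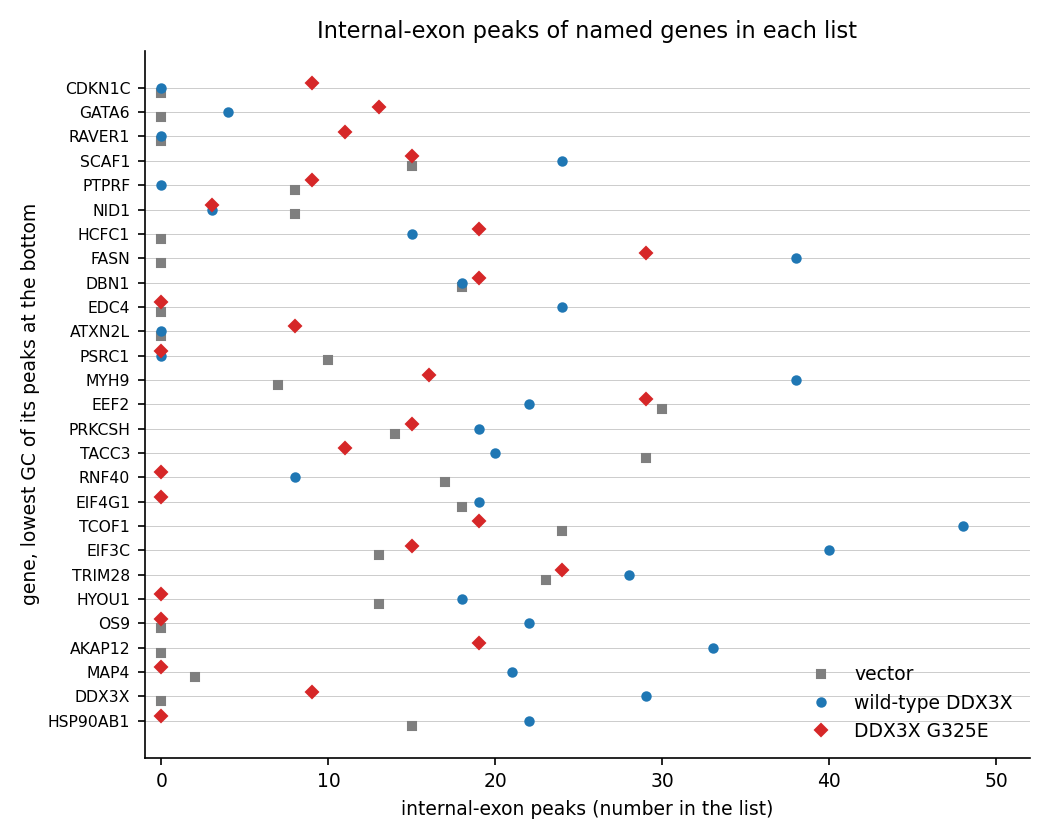
Number of internal-exon peaks (horizontal axis) of genes among those with the largest shares and the largest scaled differences, in the vector (grey squares), wild-type (blue circles) and G325E (red diamonds) lists. Genes are ordered by the mean GC content of their peaks, lowest at the bottom. Red points are at 0 for EDC4, PSRC1, RNF40, EIF4G1, HYOU1, OS9, MAP4 and HSP90AB1, while CDKN1C, RAVER1 and ATXN2L have members in G325E only.

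Several genes were absent from vector. FASN (chr17:80036214-80056112), the fatty acid synthase, had 0 members with vector, 38 with wild-type and 29 with G325E. Against a floor of 3 peaks its scaled number was at least 13.97-fold higher in G325E and at least 6.53-fold higher in wild-type. AKAP12, an anchoring protein for protein kinase A, had 0, 33 and 19, and was at least 9.15-fold and at least 5.67-fold higher. HCFC1, a coregulator of cell cycle transcription, had 0, 15 and 19, and the transcription factor GATA6 had 0, 4 and 13. Neither FASN nor AKAP12 had a vector peak of any class, and no skipped number fell around either gene in vector, whereas 1 fell around HCFC1 and 4 around GATA6.

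A smaller set had members in G325E and none in wild-type. RAVER1, an RNA-binding partner of the splicing regulator PTB, had 0, 0 and 11 members, at least 10.3-fold higher in G325E than in wild-type. CDKN1C, an inhibitor of cyclin-dependent kinases, had 0, 0 and 9 (at least 8.41-fold), and ATXN2L, a paralog of ataxin-2, had 0, 0 and 8 (at least 7.48-fold). PTPRF, a receptor tyrosine phosphatase, had 8 with vector, 0 with wild-type and 9 with G325E. In other classes wild-type held 3 peaks of RAVER1 and 1 of PTPRF, and none of CDKN1C or ATXN2L. Around PTPRF 2 skipped numbers fell in wild-type and 10 in vector, and none fell around the other 3 genes. The members of CDKN1C had a mean GC content of 81.0% and those of RAVER1 73.0%. These genes stood near the top of the GC range, and ATXN2L, at 64.1%, stood nearer to the G325E mean.

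A larger set had no members in G325E. HSP90AB1 (chr6:44214838-44221620), a cytosolic HSP90 chaperone, had 15 members with vector, 22 with wild-type and 0 with G325E. It was at least 3.46-fold lower in G325E than in vector and at least 2.62-fold lower than in wild-type, and had no G325E peak of any class. EIF4G1, the scaffold of the cap-binding complex, had 18, 19 and 0 (at least 4.15-fold lower than in vector). RNF40, a ubiquitin ligase for histone H2B, had 17, 8 and 0, and HYOU1, a chaperone of the endoplasmic reticulum, had 13, 18 and 0. EDC4, a scaffold of mRNA decapping, had 0, 24 and 0, OS9, a lectin of endoplasmic reticulum quality control, had 0, 22 and 0, and MAP4, a microtubule-associated protein, had 2, 21 and 0. EIF4G1, HSP90AB1, RNF40 and HYOU1 thus had members in both other lists, while EDC4 and OS9 had members in wild-type only. Of all these genes EDC4 alone had G325E peaks of another class, which numbered 2. Low GC content was not shared by all of them: members of HSP90AB1 averaged 47.0%, MAP4 53.6%, OS9 55.1%, EIF4G1 59.5%, RNF40 60.6% and EDC4 64.2%.

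PSRC1, a spindle protein, was found in vector only, with 10, 0 and 0 members, at least 6.47-fold higher than in wild-type. NID1, the basement membrane protein nidogen, had 8 members in vector and 3 in each of the other lists. PSRC1, NID1, PTPRF and RNF40 had the 4 largest scaled differences towards vector and away from wild-type among genes with at least 8 members over both lists.

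DDX3X itself (chrX:41193415-41209527, 17 exons) had 0 members with vector, 29 with wild-type and 9 with G325E. The wild-type members lay in 12 exons between 2 and 16, and the G325E members in exons 13 to 16 only, with 2, 2, 3 and 2 in turn. DDX3X members were thus absent without a DDX3X construct and reached the 5′ part of the gene only with the wild-type one. Footprints on construct and chromosomal mRNA cannot be told apart in these lists. In vector 2 skipped numbers fell around the gene, and whether those peaks lay within it is not known. Among the genes followed at the protein level in the study, SET, a histone chaperone, had 7, 8 and 6 members and GNB2L1, the ribosomal scaffold also named RACK1, had 9, 10 and 9. HNRNPA2B1, an RNA-binding protein of the nucleus, had 6, 8 and 0, PNN, a splicing factor, had 3, 3 and 0, and HELLS, a chromatin remodeller, had 0, 3 and 1. EEF1A1, which brings aminoacyl-tRNA to the ribosome, had 11, 20 and 0. EEF1A1 and HNRNPA2B1 therefore had no members in G325E at low GC content (47.7% and 42.2%), but SET, at 40.9%, had members in all lists. Around SET the skipped numbers were 11, 5 and 0, so its 7, 8 and 6 members could differ if any of those peaks lay within it. EEF1A1 had no G325E peak of any class, whereas HNRNPA2B1 had 7 outside internal exons.

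Chaperones had few members in G325E. Of 12 HSP90 and HSP70 family genes 9 had members, and together they had 68 with vector, 112 with wild-type and 11 with G325E. Of 8 counted against wild-type, 5 were lower in G325E and 0 higher, where 42.8% of all 669 genes were lower and 28.6% higher, with a median log2 difference of -2.57, against -0.09 over all of them. With the median scaling 7 of the 8 were lower and 0 higher, where 49.2% of all genes were lower and 5.23% higher. The counts of the groups that follow are read against the same shares. HSP90AA1 had 14, 28 and 2 members and HSPA5, the endoplasmic reticulum HSP70, 10, 13 and 3. The TRiC chaperonin, which folds actin and tubulin, had 10, 30 and 3 members. CCT5 had 0, 12 and 0, CCT2 had 3, 8 and 0, and CCT4 had 4, 5 and 3. Members of the chaperones averaged 46.6% GC and those of TRiC 45.8%. HSP90 genes have close relatives and pseudogenes, so the split of reads among them is uncertain.

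Translation factors were divided. Elongation factors, with 8 of 8 genes present, had 69, 78 and 59 members, and 5 of 7 were higher in G325E than in wild-type (median log2 1.27), but 1 of 7 with the median scaling (median log2 0.41). EEF2 and EEF1G (7, 10 and 9) were among them, and EEF1A1 was the 1 that was lower. The eIF4 group, which recruits the mRNA cap, had 36, 42 and 7 members, with 2 of 5 higher and 3 lower (median log2 -1.30), or 0 and 3 with the median scaling. EIF4G2 had 6, 8 and 1, and EIF4B 3, 5 and 0. The eIF3 complex had 36, 96 and 30 members, with 1 of 6 higher and 2 lower (0 and 2 with the median scaling), and EIF3A had 4, 24 and 3 while EIF3G had 9, 7 and 7. Aminoacyl-tRNA synthetases had 34, 79 and 21, with 0 of 6 higher and 3 lower, or 0 and 4 with the median scaling, and the 3 of 6 lay near the 42.8% of all genes. VARS had 9, 18 and 11, FARSA 11, 15 and 8, and MARS 4, 10 and 0. The synthetases of valine and phenylalanine were thus kept with G325E, and that of methionine was not on that list.

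The cytoskeletal group had 48 members with vector, 122 with wild-type and 69 with G325E, with 4 of 10 genes higher with G325E than with wild-type and 1 lower, or 0 and 1 with the median scaling. ACTB had 11, 11 and 15 members and VIM, an intermediate filament protein, 12, 16 and 10, at a group mean of 61.5% GC. Glycolytic genes had 36, 82 and 35 members, with 1 of 7 higher and 2 lower, or 0 and 3 with the median scaling. ALDOA had 11, 13 and 16, PKM 8, 20 and 11, and GPI 7, 18 and 2. The hnRNP proteins had 73, 106 and 44 members, with 3 of 13 higher and 3 lower, or 1 and 5 with the median scaling. HNRNPU had 12, 14 and 5, HNRNPL 9, 11 and 8, and HNRNPH1 10, 11 and 4. Against wild-type, more HSP90 and HSP70 genes were thus lower than higher with G325E under both scalings, while more elongation and cytoskeletal genes were higher than lower under the first only. Against vector, 1 of 6 elongation factor genes was higher with G325E and 1 lower, where 15.4% of all 462 genes were higher and 27.3% lower. Reads of actin and tubulin genes may be split among near-identical copies.

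DNA replication genes and helicases were sparse in vector. MCM and other replication genes had 11 members with vector, 66 with wild-type and 35 with G325E. POLD1, a DNA polymerase subunit, had 0, 13 and 5, TOP2A, a topoisomerase, 0, 16 and 0, and MCM7, a subunit of the replicative helicase, 0, 4 and 11. DEAD and DEAH box helicases had 8, 84 and 19 members. Of 8 counted between wild-type and vector, 7 were higher in wild-type (median log2 3.34), where 26.7% of all 769 genes were higher. When G325E was set against wild-type, 7 of 10 were lower and 2 higher, or 8 and 2 with the median scaling. DDX3X contributed 29 of the 84 and was 1 of the 7 that were higher in wild-type than in vector. DDX5 had 4, 6 and 0 members, and DDX23 had 1, 7 and 0, where the wild-type list held 6950 of all 13011 members. Proteasome subunits had 20, 52 and 9 members, and against wild-type 0 of 5 were higher with G325E and 3 lower under both scalings, on too few genes to set apart from the 42.8% and 49.2% of all genes. PSMB4 had 6, 7 and 4, PSMC4 had 0, 13 and 0, and PSMD8 had 7, 6 and 0. Nuclear transport genes had 22, 45 and 15, with 2 of 5 higher and 2 lower, or 0 and 3 with the median scaling. KPNB1, an import receptor, had 6, 14 and 3, RANBP1 6, 6 and 6, and the transport GTPase RAN 4, 5 and 4, so numbers for RAN and its binding protein were nearly equal in all lists.

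A few long exons held many members each. Exon 7 of 11 of SCAF1 (chr19:50154125-50156962, 2838 bp, 70.8% GC), which encodes a splicing-related protein, had 15 members with vector, 23 with wild-type and 15 with G325E. They covered 26.04%, 46.9% and 41.5% of its bases. AKAP12 exon 2 of 3 (chr6:151669846-151674887, 5042 bp, 50.2% GC) had 0, 33 and 18. SRRM2 exon 11 of 15 (chr16:2811562-2818262, 6701 bp, 54.8% GC), which encodes much of a large protein of splicing speckles, had 0, 40 and 0. HCFC1 exon 17 of 26 (chrX:153219517-153220993, 1477 bp, 65.9% GC) had 0, 15 and 19 members, which covered 49.0% of its bases in wild-type and 49.2% in G325E. TACC3 exon 4 of 16 (chr4:1729435-1730514, 1080 bp, 61.0% GC) had 20, 11 and 8. MYC exon 2 of 3 (772 bp, 64.2% GC), which holds much of the coding sequence of this transcription factor, had 11, 12 and 11 members over 68.8%, 72.9% and 62.7% of its bases. MYC and SCAF1 were thus on all 3 lists at near-equal or moderately unequal numbers, and SRRM2 exon 11 was on the wild-type list alone. Skipped numbers around SCAF1 were 5, 9 and 0, so its numbers could differ if any of those peaks lay within it, and around SRRM2 they were 3, 3 and 0.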

How the data were processed

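Ribosome-protected RNA was measured in 3 libraries, placed in their groups by the labels. The authors trimmed adapters with cutadapt, aligned reads with BWA 0.5.5 to hg19 together with RefSeq, exon-junction and expressed sequence tag references, removed duplicates and called peaks in each sample where coverage passed a threshold, per the study's methods and the submitters' processing notes. Peaks were annotated with HOMER by the authors, and its version is not given in the sources used here. The deposited files give positions and distances in base pairs (no count, fold or score), and hold no unit of expression. The authors' peak numbers skip 1952 values with vector, 3099 with wild-type and 0 with G325E. For its DDX3X binding peaks the study's supplement describes taking out peaks shared with a control and a review of peaks by eye. It names the same peak detection for ribosome profiling. Whether these 3 lists were reviewed in that way is not stated.

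The deposited Start was moved back by 1 base. Members were placed on protein-coding exons of GENCODE release 44 lifted to GRCh37. Transcripts of the annotated gene were preferred, then canonical transcripts, then internal exons. Gene symbols came from the lists for 9493 members and from a RefSeq table (GRCh38.p14, names only) for 3453, while 65 kept an accession. GC content was taken in 31 nt around the midpoint. Genes were called at 2-fold in scaled peaks with a pseudocount of 0.5 and at least 5 members over both lists. The floor for a list at 0 was 3 peaks. The placing and counting steps were tested on simulated peaks.

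Members and gene lists were chosen with earlier results of these data known. Named were the 12 genes with the highest mean share of members, the 4 largest scaled differences in each direction for each pair of lists (at least 8 members), DDX3X, the genes followed as proteins in the study, EEF1A1, the 6 exons with the most members and up to 3 genes for each gene list. Of these genes 1, and 1 sequence, are not reported here. Alternatives were a minimum length of 20 bp, the transcript's strand only, genes present in all 3 lists, 1 peak per exon, overlap of 50% of the shorter peak, median scaling, at least 10 members, canonical transcripts, and, added after seeing the data, peaks joined across junctions and the deposited start. Software was Python 3.11.15 with numpy 2.4.6, pandas 2.3.3, scipy 1.17.1 and matplotlib 3.10.9.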

Additional observations from a re-analysis of the deposited data

Results flagged for a closer look

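A small part of the members was annotated to the strand opposite to the transcript whose exon held them. No comparison in the report uses these peaks as such. They made up 2.51% of members in the wild-type list and 2.62% in the G325E list, above the level of the vector list, which was 1.59% (95% Wilson interval 1.23 to 2.06). Their edges were set against the reading frame of the overlapping transcript. Of 240 such 5′ edges, 37.9% (32.01 to 44.2) fell on the first base of a codon, and of 235 3′ edges 39.6% (33.5 to 45.9) fell on the second.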

How the results depend on the processing

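The G325E list had the lowest internal-exon shares, the highest exon 2 share and the highest mean GC content under every alternative tried for them. Of 156 values recomputed, 72 stayed within the interval of the first value (for counts of genes, within 1.5-fold) and 84 moved. No paired analysis was possible because there was 1 library per construct and no test. Values below are in the order vector, wild-type, G325E.

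The internal-exon share of all peaks was 33.2%, 36.3% and 16.8% with peaks on the transcript's strand, 60.2%, 60% and 51.5% in genes present in all 3 lists, 21.7%, 23.0% and 9.28% with 1 peak per exon, 38.3%, 40.5% and 20.1% for canonical transcripts and 29.2%, 31.8% and 14.02% after joining across junctions. With peaks of at least 20 bp it was 15.2% in G325E. The share among exon-class peaks of multi-exon transcripts was 66.6%, 68.3% and 46.6% with peaks of at least 20 bp, 86.1%, 86.8% and 83.0% in genes of all 3 lists, 71.2%, 73.3% and 55.1% with 1 peak per exon, 54.8%, 56.7% and 32.6% for canonical coding sequence, 66.0%, 67.8% and 45.8% after joining, and on the transcript's strand 51.3% in G325E. The exon 2 share was 23.6% for G325E in genes of all 3 lists.

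Peaks within 15 nt of an exon end made up 11.0%, 12.1% and 11.3% of members of at least 20 bp. The share was 28.4% in wild-type and 28.98% in G325E with 1 peak per exon, and 28.2% in G325E in genes of all 3 lists. Mean GC content was 57.3%, 56.8% and 64.4% with peaks of at least 20 bp, 57.7%, 57.2% and 60.8% in genes of all 3 lists, and 55.7%, 55.3% and 61.5% with 1 peak per exon. With the deposited start as it stands, 32.7%, 33.2% and 33.9% of 5′ edges fell on the first base of a codon. The listed start is the 5′ edge only on plus-strand transcripts, so minus-strand 5′ edges were left as they were. Only the first base was counted under this setting, which cannot tell a lost frame from one moved to another base.

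Overlap in genes of all 3 lists was 92.8% and 64.7% for vector members (by wild-type, by G325E), 65.1% and 50.3% for wild-type members (by vector, by G325E) and 81.4% and 89.9% for G325E members (by vector, by wild-type). With 1 peak per exon these were 91.9%, 44.1%, 50.4%, 28.7%, 69.3% and 82.5%. Genes 2-fold higher and lower numbered 30 and 44 for G325E against wild-type, 22 and 36 against vector, and 34 and 13 for wild-type against vector in genes of all 3 lists. The same pairs gave 75 and 54, 15 and 24, and 45 and 17 with 1 peak per exon, and 97 and 71, 25 and 23, and 52 and 59 with at least 10 members, where fewer genes are counted. Shares for all classes were not computed under these alternatives. Median scaling left 35 genes higher in G325E than in wild-type and 24 lower with wild-type than with vector. With peaks of at least 20 bp, 81 genes were lower in G325E than in vector. Counts of genes therefore depend on the scaling and the minimum more than the shares do. Peaks were called at a fixed coverage in libraries of unequal depth, and the lists give no reads per peak, so a gene absent from a list cannot be told from one below the threshold.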
